A study of Homo sapiens with 2 samples.

Results

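Stretches of the genome where MYC was called at 3 or more sites in close succession are described here. They come from 1 list of MYC ChIP-seq peaks. Peaks on chromosomes 1 to 22 were sorted by position and joined whenever the gap between the end of one and the start of the next was at most 1000 bp, and joined regions of 3 or more peaks were kept. This gave 453 of 14206 joined regions (3.19%), which held 1456 of 17321 peaks (8.41%). The other joined regions were 2112 with 2 peaks and 11641 with 1 peak. Members were chosen by the measured peak positions, so their number, spans and spacing are given as a description. Fold, pileup and significance come from the same comparison of ChIP with input and are also described without a test.

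The study profiled MYC by chromatin immunoprecipitation and sequencing in SH-EP/TET21/N (TET21) cells, a human neuroblastoma line with a MYCN transgene that doxycycline represses. There was 1 ChIP library and 1 input library of sonicated chromatin. Both were from cells that expressed full-length (wild-type) MYC and were kept in 1 µg/mL doxycycline for 7 days, then fixed with 1% formaldehyde for 10 min. The antibody was a rabbit polyclonal made in the submitters' laboratory, used at 2 µg. TET21 is 1 clone of SH-EP, and no library of cells without ectopic MYC was analysed here. With 1 library of each kind, no value has a replicate error. Intervals cover counting error, or the spread among peaks, within this ChIP library, and they treat peaks or regions as independent.

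MYC, a transcription factor of the basic helix-loop-helix leucine zipper family, pairs with MAX to bind DNA. The pair prefers the E-box, and at high levels of MYC it is also found at many open promoters and enhancers that lack one. Active promoters and enhancers are often broader than 1 binding site, so a peak caller can return several summits over one of them. Genes at these regions were not assigned and no sequence is shown, because the list is on GRCh37 and no annotation or genome of that build was used here.

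Most members were short runs of 3 peaks. There were 378 regions of 3 peaks, 58 of 4, 13 of 5, 3 of 6 and 1 of 7. The median region spanned 1497 bp, with quartiles of 1183 and 1868 bp, and the extremes were 696 and 3894 bp. Spans grew with the number of peaks, with medians of 1398 bp for 3 peaks, 2047 bp for 4 and 2630 bp for 5. Peaks covered a median of 813 bp of a region, or 56.2% of its span (quartiles 45.2% and 68.3%). The rest of each span was stretches where no peak was called. The members together held 395879 bp under peaks, 8.54% of all bound bp on these chromosomes, close to their 8.41% of the peaks.

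Neighbouring summits were most often 300 to 399 bp apart. Over 1003 pairs of neighbours in the members, the median distance between summits was 542 bp (95% interval 520 to 564), with quartiles of 372 and 755 bp. In regions of 2 peaks it was 547 bp (533 to 563, 2112 pairs). The 1000 bp limit on gaps bounds both, so the values are given as a description. The most common class in the members was 300 to 399 bp, with 186 of 1003 pairs (18.5%), whereas in regions of 2 peaks it was 400 to 499 bp, with 381 of 2112 pairs (18.0%). Summits 100 to 199 bp apart made up 10 pairs (0.997%) in the members, against 9 (0.426%) in regions of 2 peaks. Those 200 to 299 bp apart made up 97 pairs (9.67%) in the members, against 159 (7.53%) in regions of 2 peaks. The median gap between peak edges was 237 bp (211 to 261) in the members and 258 bp (242 to 271) in regions of 2 peaks. No pair of peaks on these chromosomes lay closer than 52 bp.

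**Figure D1:**
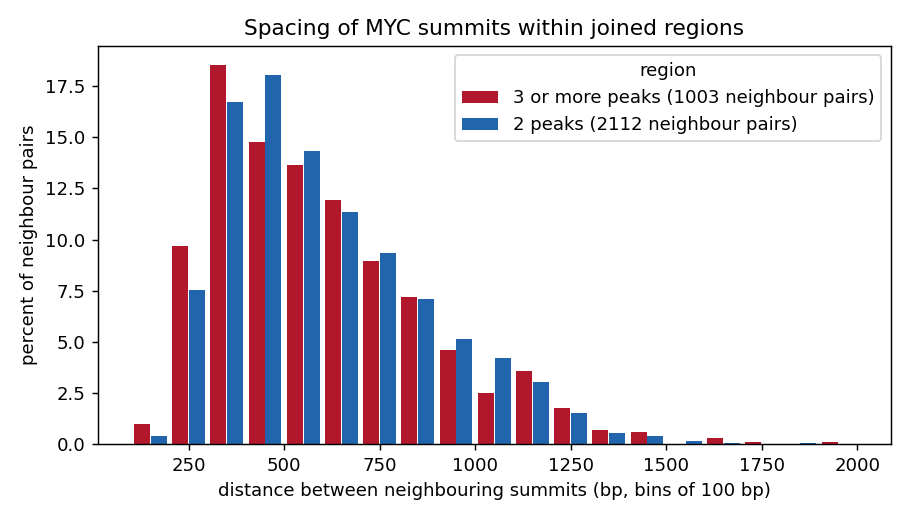
Distance between neighbouring summits within joined regions, in bins of 100 bp (x axis), as the percent of neighbour pairs (y axis). Red bars are regions of 3 or more peaks (1003 pairs) and blue bars regions of 2 peaks (2112 pairs); both fall off after about 500 bp, and the red bars are highest at 300 to 399 bp.

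Spacing also varied within a region. In the 378 regions of 3 peaks, the shorter of the 2 summit distances had a median of 393.5 bp and the longer a median of 715.5 bp. The longer was at most 1.5 times the shorter in 158 regions (41.8%, Wilson 95% interval 36.9 to 46.8). The ratio of longer to shorter had a median of 1.62 and reached 6.92. The ratio cannot fall below 1, and it rests on the positions that chose the members.

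Taken one at a time, the peaks in these regions had folds close to those of other peaks. The fold is the authors' own value for each peak, the ChIP signal at the summit over the caller's local background. Its median was 6.30 (95% interval 6.11 to 6.44) in the members, 6.40 (6.29 to 6.47) in regions of 2 peaks and 6.42 (6.39 to 6.47) for lone peaks. Of 1456 member peaks, 231 (15.9%) had a fold of at least 10, against 15.4% of all peaks on these chromosomes. A fold of at least 20 was met at 26 member peaks (1.79%), against 1.44% of all peaks. Both shares lie near those of the whole list. Peak width differed little, with medians of 234.5 bp (228 to 242) in the members, 233 bp (229 to 237) in regions of 2 peaks and 222 bp (220 to 225) for lone peaks. The interval for lone peaks lies below the other intervals. Peaks over 500 bp wide made up 6.73% of member peaks, against 6.81% of all peaks.

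**Figure D2:**
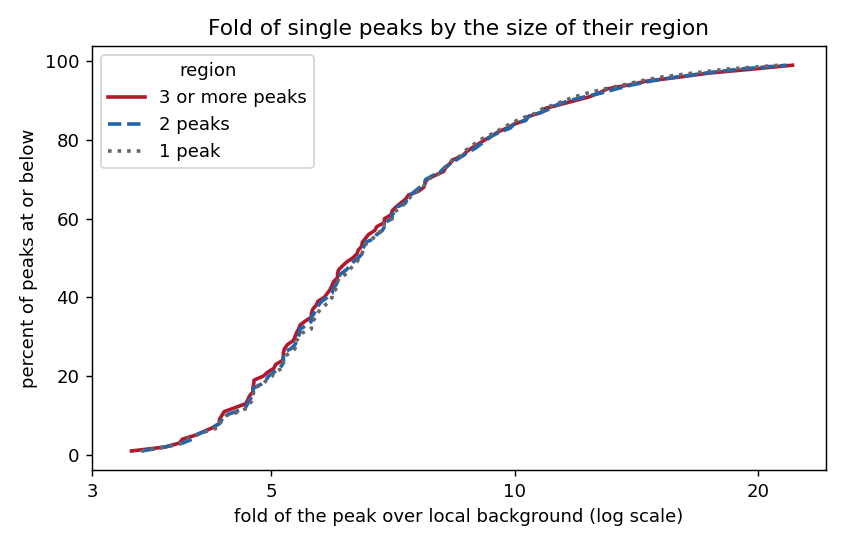
Percent of peaks (y axis) at or below each fold over local background (x axis, log scale), for peaks in regions of 3 or more (red), in regions of 2 (blue, dashed) and alone (grey, dotted). The curves nearly coincide; the medians are 6.30, 6.40 and 6.42.

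The number of ChIP fragments over each summit, the pileup, was recovered from the deposited fold and p-value. Its median was 13 fragments in the members (95% interval 12 to 13), 13 in regions of 2 peaks and 13 for lone peaks. Local background, the fragments that the caller expected at the site, had a median of 1.12 in all 3 kinds of region. The lowest value the caller used, 0.683 fragments, was met at 7.01% of member peaks (Wilson 95% interval 5.80 to 8.43), at 7.81% of peaks in regions of 2 (7.04 to 8.66) and at 10.8% of lone peaks (10.3 to 11.4). Lone peaks thus sat at this floor more often than member peaks, with intervals that do not overlap. Within a member, the highest background was a median of 1.6 times the lowest, and 118 of 453 regions had a ratio of 2 or more, so folds within 1 region do not all share a denominator.

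Regions as wholes gathered more signal, with more peaks to add up. Pileups summed over a region had a median of 46 fragments (95% interval 44 to 47) in the members, 27 (27 to 28) in regions of 2 peaks and 13 for lone peaks. The members' summed pileup was 8.49% of that on these chromosomes, again near their 8.41% of peaks. A best fold of 10 or more was met in 190 of 453 members (41.9%, Wilson 37.5 to 46.5), in 28.8% of regions of 2 peaks (26.9 to 30.8) and in 15.2% of lone peaks (14.6 to 15.9). The best of several peaks is higher than a single one by construction. Among the 100 most significant peaks of these chromosomes, 12 lay in the members (7.00% to 19.8%), 28 in regions of 2 peaks (20.1% to 37.5%) and 60 alone (50.2% to 69.1%). These intervals include the shares of all peaks, which were 8.41%, 24.4% and 67.2%. Among the top 2000, 180 (9.0%, 7.82 to 10.3) lay in the members.

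How far the leading peak stood above its companions varied among the members. Ranked by significance within the region, the first peak had a median pileup of 19 fragments (quartiles 15 and 26), the second 13 (11 and 17) and the third 10 (9 and 12), an order that the ranking itself sets. Their median folds were 9.23, 6.46 and 5.17, and their median widths 300, 235 and 188 bp. The leading peak of a pair had a median of 16 fragments and its partner 11. The second highest pileup of a member was a median of 0.75 times the highest (95% interval 0.722 to 0.769), against 0.692 (0.684 to 0.711) in regions of 2 peaks. A choice of the second from several peaks raises this ratio by construction.

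The highest pileup was at least 1.5 times the next in 175 members (38.6%), against 47.4% of pairs, and at least 2 times the next in 86 members (19%), against 22.6% of pairs. The exact Poisson 95% intervals of the highest and the next pileup did not overlap in 41 members (9.05%, Wilson 6.74 to 12), against 8.67% of pairs (7.54 to 9.94). All peaks lay within 1.5 times of each other in 131 members (28.9%, 24.9 to 33.3), against 55.9% of pairs (53.7 to 58.0), where 1 companion has to meet the limit. In regions of 3 peaks the most significant peak was at the lowest coordinate in 126, in the middle in 120 and at the highest coordinate in 132 of 378. The Wilson intervals of these shares (28.8% to 38.2%, 27.3% to 36.6% and 30.3% to 39.9%) each include 33.3%, an even share among 3 positions. The 3 shares come from the same regions, and a preference for the middle or an end was not tested.

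**Figure D3:**
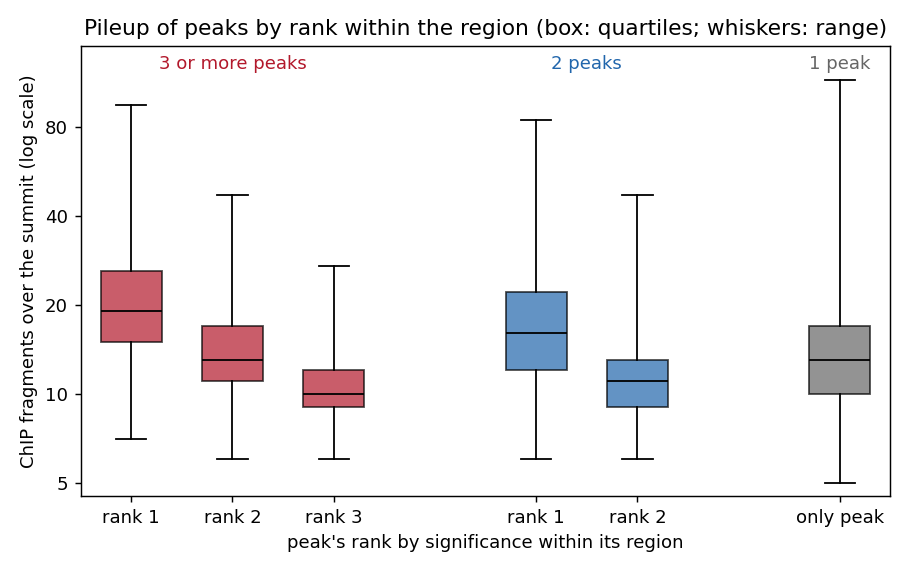
ChIP fragments over the summit (y axis, log scale) by the rank of a peak within its region (x axis), for regions of 3 or more peaks (red), 2 peaks (blue) and 1 peak (grey); boxes are quartiles with the median, whiskers the full range. Medians fall over 19, 13 and 10 fragments in regions of 3 or more peaks, are 16 and 11 in pairs, and 13 for lone peaks.

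The region with the most peaks was low and level. It held 7 peaks on chromosome 17 at 4869627 to 4872834 (GRCh37, 1-based), with pileups of 10, 12, 13, 10, 8, 8 and 12 fragments from the lowest to the highest coordinate. The folds of these peaks were 6.53, 7.05, 6.04, 6.53, 5.35, 5.35 and 7.05. The exact Poisson 95% interval of 8 fragments is 3.45 to 15.8 and that of 13 is 6.92 to 22.2, so none of the 7 stood apart. Their summits were spread over 3045 bp, and their backgrounds were 0.683 to 1.32 fragments. The nearest other region was 16116 bp away.

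The 3 regions of 6 peaks were also on chromosome 17. The strongest, at 79826070 to 79829589, was led by its last peak, with 64 fragments (49.3 to 81.7) and a fold of 26.0. Its other 5 peaks had 17, 15, 10, 12 and 16 fragments. The last peak stood apart from its 5 companions, whose intervals end at 27.2 fragments or lower. The region at 2302851 to 2305444 was more mixed, with 37, 11, 18, 17, 26 and 14 fragments and a best fold of 12.8. The region at 74379423 to 74382264 had 18, 9, 20, 10, 8 and 23 fragments, with folds of at most 7.05.

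Among the 13 regions of 5 peaks, the most significant peak lay on chromosome 11 at 35639262 to 35641391. Its pileups were 10, 41, 16, 23 and 7 fragments in the order of their positions, and the second peak had a fold of 24.8. This region was compact, with 69.1% of its 2130 bp under peaks and backgrounds of only 0.694 to 0.843 fragments. A region on chromosome 17 at 47072590 to 47076026 had the highest summed pileup of all members, 139 fragments, made of 27, 43, 17, 38 and 14. Its highest fold, 16.2, was at the fourth peak and not at the second, which had the highest pileup over a background of 3.30. A region on chromosome 18 at 3622474 to 3625103 had a central peak of 23 fragments (fold 12.7) among others of 9 to 11.

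The others named for their number of peaks had leading folds near 10. The region on chromosome 1 at 154972260 to 154974741 had 23, 12, 11, 31 and 27 fragments, over backgrounds of 1.31 to 3.96. On chromosome 11, the region at 73018710 to 73020540 had 12, 26, 11, 11 and 16 fragments, and that at 118306113 to 118308806 had 14, 18, 7, 8 and 10. The region at 118306113 had 1 further peak within 100 kb. On chromosome 9, the region at 73033399 to 73035311 had 16, 18, 17, 11 and 17 fragments, with 78.9% of its span under peaks.

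The 5 longest members differed in how much of their span was under peaks, from 34.8% to 64.5%. The longest, 3894 bp on chromosome 7 at 116164525 to 116168418, had 5 peaks over 34.8% of it, with 22, 14, 24, 13 and 15 fragments and a best fold of 10.5. One of its gaps was 998 bp, the longest gap inside any member. The region on chromosome 22 at 46448683 to 46452474 had 35.3% under peaks, with 12, 15, 13, 11 and 9 fragments, with folds of 4.31 to 6.96. The region on chromosome 12 at 6641750 to 6645458 had 47.6% under peaks, with 8, 12, 16, 15 and 8 fragments, rising and falling around a middle peak 756 bp wide with a fold of 9.51. In these 3 regions every Poisson interval overlapped every other.

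**Figure D4:**
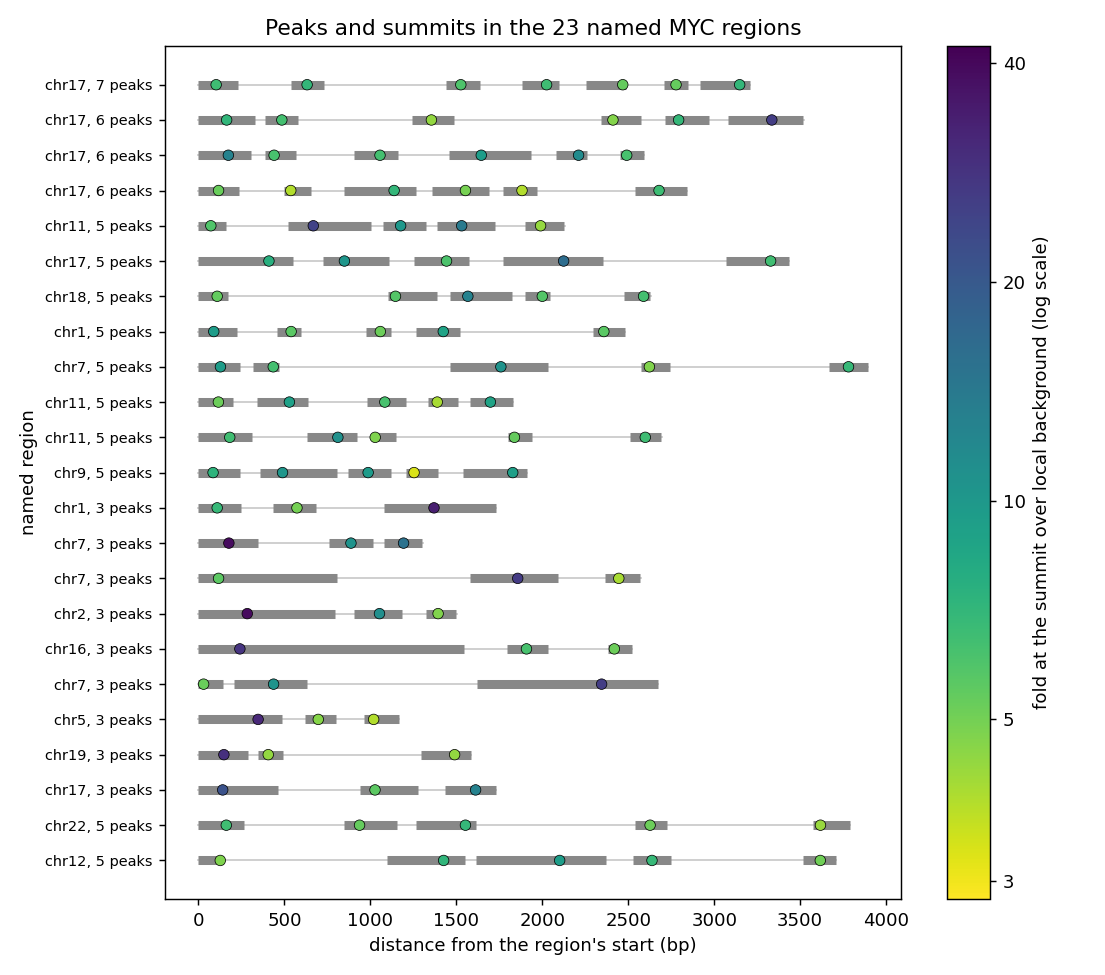
Peaks (grey bars) and their summits (points, coloured by fold on a log scale) in the 23 regions described by name, each on its own row and labelled with its chromosome and number of peaks; the x axis is the distance in bp from the region's start. The upper 12 rows were taken for their number of peaks, the rows of 3 peaks for their significance and the lowest 2 rows for their span; the rows of 3 peaks each have 1 dark summit, with a fold of 21.5 or more, beside paler ones.

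The most significant members were picked by their best peak, so a high leading peak is built into them. On chromosome 1 at 156023065 to 156024797, the third peak had 89 fragments (exact Poisson 95% interval 71.5 to 109.5) and a fold of 33.5, while the first had 15 and the second 10. On chromosome 2 at 29117245 to 29118745, the first peak had the highest fold of any member, 39.3, with 70 fragments, followed by peaks of 32 and 13. On chromosome 5 at 175815267 to 175816432, a peak of 54 fragments (fold 31.1) was followed by 2 of 8 fragments each. On chromosome 19 at 49999178 to 50000763, a peak of 56 (fold 29.0) was followed by 2 of 12. In each of these 4 regions the interval of the leading peak lay above those of the weakest peaks.

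In 2 of these regions the leading peak was over 1000 bp wide. On chromosome 16 at 4321125 to 4323646 the first peak was 1548 bp wide, the widest of the members, with 64 fragments and a fold of 28.0, and its neighbours had 11 each. On chromosome 7 at 26239439 to 26242110 the last peak was 1049 bp wide with 65 fragments (fold 26.0), after peaks of 12 and 25. The highest pileup of any member, 95 fragments (76.9 to 116.1), was the middle peak on chromosome 7 at 150757695 to 150760266. Its fold was 26.4 over a background of 2.64, and its neighbours had 23 and 11.

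A second peak with a fold of 10 or more was seen in 4 of the regions picked by significance, among them those at 29117245 on chromosome 2 and at 26239439 on chromosome 7, with second folds of 11.1 and 10.4. On chromosome 7 at 766045 to 767348 the 3 peaks had 79, 21 and 31 fragments and folds of 39.0, 10.5 and 15.3. On chromosome 17 at 48286805 to 48288536 they had 63, 14 and 29 fragments and folds of 21.5, 5.58 and 12.9. Every peak reached a fold of 10 in 2 members only (0.442%, Wilson 0.121 to 1.59). They were the region at 766045 on chromosome 7 and one on chromosome 4 at 3956397 to 3957775, with 21, 16 and 26 fragments and folds of 13.1, 10.1 and 11.6, which was chosen after its values were seen. Among pairs, 66 of 2112 (3.12%, 2.46 to 3.96) had both peaks at a fold of 10 or more. A region with more peaks has more that can fall short.

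At the other end, 5 members (1.10%, Wilson 0.472 to 2.56) had every peak under a fold of 5, against 101 of 2112 pairs (4.78%, 3.95 to 5.78). These 5 members were also chosen after their values were seen. More peaks have to fall under the limit in a member than in a pair, so a lower share is built in. Taken one at a time, peaks under a fold of 5 were about as common in both kinds of region. The fold was 4.95 at percentile 21 of member peaks and 4.96 at percentile 20 of peaks in pairs. The region on chromosome 2 at 106810322 to 106811093 had 7, 7 and 9 fragments, and that on chromosome 6 at 132271250 to 132272179 had 6, 6 and 9. On chromosome 13 at 114897122 to 114898068 the peaks had 10, 10 and 7. On chromosome 7 at 73508448 to 73509355 they had 16, 12 and 12 fragments, and on chromosome 17 at 73149037 to 73150925 they had 16, 14 and 17, with folds of 3.57 to 4.95 over both regions. All 5 regions had 3 peaks.

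Chromosome 17 held the highest share of crowded regions. On it 50 of 933 joined regions had 3 or more peaks (5.36%, Wilson 95% interval 4.09 to 7.00), against 403 of 13273 (3.04%, 2.76 to 3.34) on the other chromosomes, and these intervals do not overlap. It also held 6 of the 17 regions of 5 or more peaks. Next came chromosome 6 with 31 of 765 (4.05%, 2.87 to 5.69) and gene-rich chromosome 19 with 33 of 831 (3.97%, 2.84 to 5.52), whose intervals include the 3.19% of all chromosomes. The lowest share was on chromosome 5, with 11 of 695 (1.58%, 0.886 to 2.81), and its interval lies below 3.19%. Only chromosomes 17 and 5 had intervals that leave out that value, and 22 chromosomes were looked at.

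**Figure D5:**
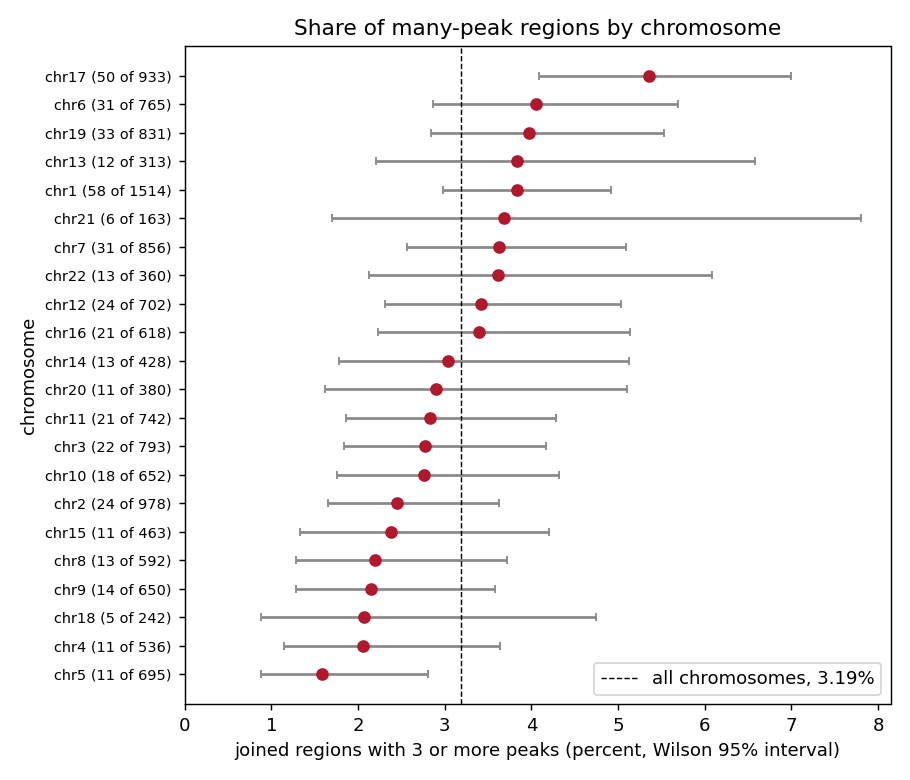
Percent of joined regions with 3 or more peaks (x axis) on each of 22 chromosomes (y axis, with counts), with Wilson 95% intervals. The dashed line is 3.19%, the share over all of them; chromosome 17 lies above it and chromosome 5 below it, and the other intervals cross it.

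Local background and pileup were higher on part of chromosome 17, and their part in its share was not tested. An earlier look at these data had placed a rise of background along chromosomes 17 and 1, and the parts here were cut at 44 Mb and 120 Mb. Beyond 44 Mb on chromosome 17, 31 of 469 regions were crowded (6.61%, Wilson 4.70 to 9.23), with a median background of 1.5 and a median pileup of 16 fragments over all its peaks. Before 44 Mb, 19 of 464 were (4.09%, 2.64 to 6.31), with a background of 1.03 and a pileup of 13. The intervals of these shares overlap. Beyond 120 Mb on chromosome 1 the share was 4.16% (2.96 to 5.81) at a background of 1.41, and before it 3.49% (2.40 to 5.07) at 1.03. Chromosome 7, with a background of 1.32, had 3.62% (2.56 to 5.10). On chromosomes other than 1, 7 and 17 the share was 2.88% (2.58 to 3.21), at a background of 0.965 and a pileup of 12. Taken over the crowded regions alone, and not over all peaks as above, the median background was 1.03 on chromosome 6 and 0.937 on chromosome 19. It was 0.853 on chromosome 13 and 1.22 on chromosome 4. The shares of these chromosomes were 4.05%, 3.97%, 3.83% and 2.05%, with intervals that include the 3.19% of all chromosomes. The same median was 1.316 on chromosome 1, 1.378 on chromosome 7, 0.881 on chromosome 2 and 0.890 on chromosome 18. Their shares were 3.83%, 3.62%, 2.45% and 2.07%, also with intervals that include 3.19%. On chromosomes 17 and 5, whose intervals do not, the same median was 1.325 and 0.937, with shares of 5.36% and 1.58%. These chromosomes are examples from the 22, and a relation of the share to background was not tested.

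Over 22 chromosomes the number of crowded regions followed the number of peaks (Pearson r = 0.90, Spearman rho = 0.89), as parts of the same list would. The share of crowded regions did not follow peaks per 100 protein-coding genes (r = 0.03, rho = -0.07, 22 chromosomes from the same library). Per 100 protein-coding genes, chromosome 17 held 4.28 crowded regions (exact Poisson 95% interval 3.17 to 5.64), chromosome 13 held 3.55 (1.83 to 6.20) and chromosome 7 held 3.31 (2.25 to 4.69). Chromosome 11 held 1.61 (0.999 to 2.47), chromosome 4 held 1.43 (0.714 to 2.56) and chromosome 5 held 1.22 (0.608 to 2.18).

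The surroundings of the regions were measured from the same peak list. The nearest other joined region was a median of 21809 bp away (95% interval 18036 to 25134), against 29344 bp (26888 to 31726) for regions of 2 peaks and 29474 bp (28411 to 30768) for lone peaks. Another region lay within 10 kb of 144 members (31.8%, Wilson 27.7 to 36.2), of 25.3% of regions of 2 peaks (23.5 to 27.2) and of 25.8% of lone peaks (25 to 26.6). These distances come from the same peak positions as the members and are a description. No other region lay within 100 kb of 63 members (13.9%, 11 to 17.4), of 17.1% of regions of 2 peaks (15.5 to 18.8) and of 18.7% of lone peaks (18.0 to 19.4). The median number of further peaks within 100 kb was 3 for the members, 3 for regions of 2 peaks and 2 for lone peaks.

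The members themselves were mostly far apart, with a median of 2615 kb between neighbours on a chromosome. They occupied 365 windows of 1 Mb, of which 63 held at least 2 members and 5 held 4. These 5 windows were 79 to 80, 7 to 8 and 73 to 74 Mb on chromosome 17, 150 to 151 Mb on chromosome 7 and 45 to 46 Mb on chromosome 19. The window at 150 Mb on chromosome 7 had 28 peaks, of which 13 were in its 4 members, while that at 79 Mb on chromosome 17 had 64 peaks, of which 15 were.

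In 6 cases another member lay within 10 kb. On chromosome 9, a region of 3 peaks at 73028284 to 73029101 (best fold 9.81) lay 4297 bp before the region of 5 peaks at 73033399 described above. On chromosome 1, regions of 3 peaks at 234743888 to 234744848 and 234748408 to 234749524 were 3559 bp apart, with best folds of 10.7 and 7.97. On chromosome 16, 2 regions of 4 peaks, at 29816626 to 29819330 and 29827212 to 29828473, had best folds of 9.44 and 5.97. On chromosome 22, regions of 4 and 3 peaks at 46465580 to 46467629 and 46474618 to 46476429 had best folds of 8.78 and 14.0. On chromosome 19, regions of 3 peaks at 13262395 to 13264047 and 13273734 to 13275082 had best folds of 13.4 and 5.60. The remaining pair, of 4 and 3 peaks on chromosome 8, was 1149 bp apart, just past the joining distance.

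The joining distance set which regions were members. In 35 members the largest gap was over 900 bp, and their best folds had a median of 9.98 (range 6.04 to 26.0). Another 14 regions would have reached 3 peaks with gaps of up to 1100 bp, with a median best fold of 9.39 (range 4.96 to 13).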

How the data were processed

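The list is the authors' narrowPeak table of 17659 MYC peaks, of which 17321 are on chromosomes 1 to 22. MACS2 2.1.0, Picard 2.7.1, SAMtools 1.3, STAR 2.5.2a and the build GRCh37 are listed, without roles, in the submitters' processing notes. The deposited fold is a ratio to the local background. The deposited −log10 p and −log10 q values are the caller's, and the deposited score is the −log10 q times 10 without decimals (100.0% of peaks). How the authors filtered the list is not given in the sources used here.

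Pileup and background were recovered by trying every whole pileup from 3 to 699, with p read as the Poisson tail above the pileup, and fold as the pileup over the background with 1 added to each. The deposited −log10 p was met within 0.001 in 100.0% of peaks, and 100.0% of 2693 simulated pileups were recovered. Intervals are 95%: Wilson for shares, exact Poisson for counts, and order statistics for medians. Without molecular identifiers, fragments may be copies of 1 molecule, so these intervals cover counting error only. Depth is otherwise unknown. Protein-coding genes per chromosome came from RefSeq (GRCh38.p14), whose coordinates were not used. Regions named in the text are the 12 with most peaks (of 17 with 5 or more, ties ordered by the significance of the best peak), the 10 most significant by their best peak and the 5 longest (23 in all), besides those said to be chosen later. The members and lists were chosen with earlier results of these data known. Of 7 planned results, 3 (starts, motifs and 15 gene lists) need a GRCh37 annotation or genome and were not computed. Python 3.11.15, numpy 2.4.6, pandas 2.3.3 and scipy 1.17.1 were used.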

Additional observations from a re-analysis of the deposited data

How the results depend on the processing

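Of 17 alternatives, 7 left a count within 1.5 times or a median within its 95% interval, and 10 were counted as moved. Among the 10 is the best fold measured as pileup, which has another unit and was counted as moved without this comparison. The number of regions of 3 or more peaks, 453 as reported, was 284 with a joining gap of 500 bp, 63 with peaks at or above the list's median −log10 p (10.3), 235 with a fold of 5 or more and 261 with a pileup of 10 or more; fewer peaks or shorter gaps lower it by construction. The median summit distance, 542 bp, was 460 bp with the 500 bp gap, 614 bp with 2000 bp, 592.5 bp at the median −log10 p and 570 bp with a pileup of 10 or more. The median best fold, 9.24, was 10.8 at the median −log10 p; measured as pileup it was 19 fragments. The pileup limit was chosen after seeing the data. Chromosome 17 had a higher share than the other chromosomes in each of 4 settings run: 3.21% (Wilson 2.29 to 4.5) against 1.81% (1.6 to 2.04) with 500 bp, 7.31% (5.78 to 9.21) against 3.96% (3.64 to 4.31) with 2000 bp, 4.5% (3.30 to 6.12) against 2.01% (1.77 to 2.29) with a pileup of 10 or more, and 1.70% (0.928 to 3.11) against 0.723% (0.554 to 0.945) at the median −log10 p, where the intervals overlap. These 4 settings reuse the same peak list, so they are not independent of the main result. The median pileup was 13 fragments before and 16 beyond 44 Mb on chromosome 17, against 12 on chromosomes other than 1, 7 and 17. A limit on pileup or −log10 p can therefore drop a smaller share of its peaks. The 8 alternatives on starts, motifs and gene lists were not run, for lack of a GRCh37 annotation or genome. Leaving out a replicate was not possible with 1 library of each kind. No paired analysis was possible because the 2 libraries are a ChIP and its input and no test was made. No peak on these chromosomes had a pileup under 5, so weaker summits between called peaks could not be seen in this list.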

Other observations

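Crowded regions also occurred outside chromosomes 1 to 22. Chromosome X held 5 regions of 3 peaks. That at 153625947 to 153627400 had the highest fold of them, 12, with a pileup of 22 fragments, and that at 153606381 to 153607772 lay on the same stretch with a best fold of 6.04. The others, at 1510535 to 1511689, 16804502 to 16805466 and 49028095 to 49029158, had best folds of 9.85, 7.39 and 5.35. Outside the assembled chromosomes, the contig GL000205.1 held a region of 4 peaks over 3090 bp, with a best fold of 8.36 and backgrounds of 4.5 to 5.28 fragments. GL000195.1 held one of 3 peaks over 2577 bp, with a best fold of 8.01 and backgrounds of 4.22 to 9.90, well above the median of 1.12 on chromosomes 1 to 22.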
